A study of Mus musculus with 48 samples.

Results

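*Sim1*, *Arnt2*, *Pou3f2* and the *Onecut* genes encode transcription factors of neuroendocrine neurons, and they were followed here in single-cell RNA-seq (scRNA-seq) of the mouse hypothalamus at E18.5. The members were chosen by name, with earlier results of these data known: *Sim1*, *Arnt2*, *Pou3f2*, *Onecut1*, *Onecut2* and *Onecut3*. All 6 had a row among the 16510 genes of the count table. Control embryos were *Eed* fl/fl and mutant embryos were *Eed* fl/fl; *Sox1-Cre*/+ (*Eed-cKO*), so that both genotypes carried the floxed *Eed* alleles on a mixed B6:129S1 background and the mutants alone carried *Cre*. *Sox1-Cre* acts in the early neural plate and its descendants. The data covered 22 libraries from 6 control embryos (2 female and 4 male) and 26 libraries from 9 *Eed-cKO* embryos (5 female and 4 male). Hypothalami were cut into pieces before dissociation, and which piece a library holds is not given in the sources used here. The embryo was the unit of replication throughout.

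*Eed* is a core subunit of Polycomb repressive complex 2, which places the repressive H3K27me3 mark. SIM1 and ARNT2 are basic helix-loop-helix PAS proteins that bind DNA as a heterodimer. In the mouse, loss of either leaves the paraventricular and supraoptic nuclei without their neurons making vasopressin (*Avp*), oxytocin (*Oxt*), corticotropin-releasing hormone (*Crh*), thyrotropin-releasing hormone (*Trh*) and somatostatin. POU3F2, also called BRN2, is a POU-homeodomain protein that acts downstream of SIM1 and ARNT2 and is needed for the vasopressin, oxytocin and corticotropin-releasing hormone neurons. ONECUT1, ONECUT2 and ONECUT3 each carry a CUT domain and a homeodomain. They are known from liver and pancreas, from spinal motor neurons and from the retina, and they are expressed in parts of the hypothalamus.

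In the GRCm38 annotation, *Sim1* lies on the plus strand at chr10:50894754-50989152, *Arnt2* on the minus strand at chr7:84246278-84410176, and *Pou3f2*, a gene of a single exon, on the minus strand at chr4:22482780-22488366. *Onecut1* lies at chr9:74861921-74891781 and *Onecut3* at chr10:80494835-80517276, both on the plus strand. An antisense gene overlaps exons of *Arnt2* and a non-coding gene overlaps exons of *Onecut1*, and neither had a row of its own. Whether counting used strand was not given in the sources used here, so reads of these partners could stand under the named genes. SIM1 with an ARNT-type partner binds the core TACGTG in assays of its DNA binding, and the start region of *Pou3f2* is shown because, of the 4 members whose windows were searched (*Sim1*, *Arnt2*, *Pou3f2* and *Onecut1*), it is the one that holds these letters. The starts of *Onecut2* and *Onecut3* were not searched. The sequence is the RefSeq window of 250 bases ending at the base before the annotated start (GRCm38.p6, chr4:22488367-22488616, minus strand), printed 5′ to 3′, with the match to TACGTG on the opposite strand in capitals.
Pou3f2: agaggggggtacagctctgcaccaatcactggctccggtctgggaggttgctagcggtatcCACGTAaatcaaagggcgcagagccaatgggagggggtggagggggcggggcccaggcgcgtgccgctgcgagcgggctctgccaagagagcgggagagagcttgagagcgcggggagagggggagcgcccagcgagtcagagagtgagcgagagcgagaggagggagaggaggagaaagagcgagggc
TACGTG was searched on both strands, and 2.72% of the 32851 windows of this length held it. Neither the octamer ATGCAAAT, found in 1.6% of windows, nor the *Onecut* core ATCGAT, found in 0.728%, occurred in the windows of *Sim1*, *Arnt2*, *Pou3f2* or *Onecut1*. The RefSeq window of *Sim1* (chr10:50895401-50895650) lies inside the gene as placed above, and that of *Arnt2* (chr7:84410039-84410288) partly so. The 4 windows held 11, 31, 18 and 31 CG dinucleotides, against a median of 6 over all windows. At least as many were held by 35.6%, 5.19%, 21.7% and 5.19% of all windows. These are counts of letters, and no binding was measured.

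The count table held 14121 cells (7186 control and 6935 *Eed-cKO*) and 74487617 UMIs. Libraries held 163 to 465 cells, apart from 1 control library of 1207 cells with a median of 2919 UMIs per cell, and the library medians ran from 2663 to 7532 UMIs. Each embryo had 5363119 to 7487417 UMIs in controls and 658175 to 6299181 in *Eed-cKO*, where embryo 9 was the shallowest, with 1 library and 217 cells. There were 101 cell barcodes that occurred in more than 1 library, of 14019 distinct ones. The 6 control embryos came from 4 litters and the 9 mutants from 6, as read from the leading number of the library names. No litter held both genotypes, so litter and genotype cannot be told apart. *Eed* was lower in *Eed-cKO* neural cells (log2 fold change -0.45, SE 0.08, edgeR adjusted p = 0.00045), but the 3′ tag of this assay lies outside the deleted exons, so this level does not check the deletion. Clustering without the 6 members gave 26 clusters. Of these, 14 were neuron-like, with 5269 control and 4909 *Eed-cKO* neurons (median 5504 and 4867 UMIs), and 2 neuron-like clusters of 1751 cells held 16 control cells in all.

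Among control cells *Sim1* was a gene of neurons, whereas *Pou3f2* and *Arnt2* were also found in glia and progenitors. All values in this paragraph are counts-per-million (CPM) of the summed UMIs of a cell class in an embryo. *Sim1* had a median of 48.5 CPM over the 6 control embryos in neuron-like cells (33.8 to 62.4), against 4.4 in astrocyte-like cells, 0 in cycling progenitor-like cells and 7.6 in non-neural cells, and the neuron-like range lay above every embryo of those 3 classes. *Pou3f2* had a median of 71.3 CPM in neuron-like cells (52.1 to 78.3), 132.5 in astrocyte-like cells (97.1 to 215.2), 111.0 in cycling progenitor-like cells (54.4 to 281.1) and 18.98 in non-neural cells (7.2 to 50.4). The astrocyte-like embryos thus lay above all neuron-like values, while the cycling class overlapped the neurons. *Arnt2* had a median of 299.1 CPM in neuron-like cells (271.2 to 325.7), 236.0 in cycling progenitor-like cells (141.4 to 292.2), 167.4 in astrocyte-like cells (154.6 to 202.9) and 60.8 in non-neural cells (28.8 to 132.2), and in this order the first 2 classes overlapped, as did the second and the third. *Onecut2* had a median of 147.3 CPM in neuron-like cells (135.4 to 184.6), against 16.7 in astrocyte-like cells (3.0 to 84.5), 18.7 in cycling progenitor-like cells (0 to 23.3) and 9.6 in non-neural cells (0 to 22.4). *Onecut1* and *Onecut3* were scarce beside *Onecut2*, which lies on chromosome 18, with 77 and 137 UMIs over all control neurons.

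The first comparison asked how loss of *Eed* bears on these genes in neurons. *Onecut2* rose and *Arnt2* fell in *Eed-cKO* neuron-like cells, whereas the levels of *Sim1* and *Pou3f2* overlapped between the genotypes. Levels are CPM scaled by the trimmed mean of M-values (TMM) and summed over the neuron-like cells of an embryo. *Onecut2* was at 139.4 (lowest), 149.8 (median) and 185.3 (highest) in the 6 control embryos and at 244.2, 280.2 and 377.4 in the 9 *Eed-cKO* embryos, with means of 157.7 ± 20.4 (SD, n = 6) and 295.1 ± 45.8 (n = 9). Every mutant embryo lay above every control embryo, as was so for 254 of the 11957 genes tested. The log2 fold change was 0.89 (SE 0.09, edgeR adjusted p = 2.8e-07), a fold of 1.85, from 5226 and 7949 UMIs. *Arnt2* was at 276.0, 303.7 and 335.2 in control and at 223.2, 248.5 and 279.3 in *Eed-cKO*. The 2 groups overlapped only where the highest mutant passed the lowest control. Its log2 fold change was -0.28 (SE 0.06, edgeR adjusted p = 0.0028), and limma-voom with TREAT on libraries did not call it (adjusted p = 0.12). Of the 5 members that could be tested 1 was thus called higher and 1 lower at an adjusted p under 0.05, against 9.69% and 8.76% of the 11957 genes tested.

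*Sim1* was at 34.4, 49.2 and 62.6 in control neurons and at 29.2, 51.0 and 73.6 in *Eed-cKO* neurons (log2 fold change 0.05, edgeR adjusted p = 0.85). *Pou3f2* was at 53.0, 72.5 and 79.6 in control and at 45.4, 67.1 and 85.0 in *Eed-cKO* (-0.06, edgeR adjusted p = 0.76). For both genes the mutant range held the whole control range. *Onecut3* was at 2.52, 4.21 and 5.62 in control and at 1.61, 3.58 and 4.51 in *Eed-cKO*, from 137 and 90 UMIs, and was not called (edgeR adjusted p = 0.31). *Onecut1* was at 1.86, 2.22 and 2.78 in control and at 1.11, 2.32 and 5.93 in *Eed-cKO*, from 77 and 87 UMIs. It was too low for the test, and 4 mutant embryos lay above all controls. Differences in *Onecut1* and *Onecut3* within the spread of these embryos were not detectable at this depth.

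**Figure D1:**
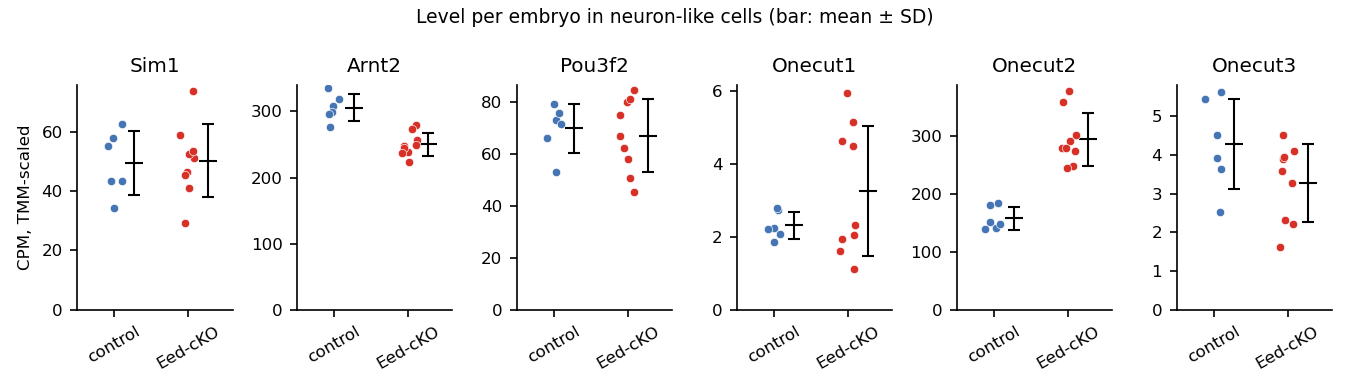
Level of each of the 6 genes in neuron-like cells by embryo, in TMM-scaled CPM on a linear axis, with 6 control and 9 *Eed-cKO* embryos as points and the mean with SD as a bar. For *Onecut2* the 9 mutant embryos, at 244.2 to 377.4, sit above all 6 controls, at 139.4 to 185.3; for *Sim1* and *Pou3f2* the 2 sets of points overlap.

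Genes of the same protein families were followed in lists chosen by family, and bHLH-PAS genes moved in both directions. Among neuron-like cells 2 of 8 tested bHLH-PAS genes other than the members rose and 1 fell (median log2 fold change -0.00, against 0.00 over all genes tested). *Npas4*, an activity-induced factor, rose (1.05, edgeR adjusted p = 5.6e-07), as did *Npas3* (0.46, edgeR adjusted p = 0.0037), while *Npas1* fell by 0.76 on the log2 scale (edgeR adjusted p = 0.026). Of 9 tested POU genes 3 rose (median 0.18). *Pou4f2*, a factor of retinal and sensory neurons, had 0 UMIs in all control neurons and 302 in *Eed-cKO* neurons, and *Pou4f1* rose (1.65, edgeR adjusted p = 0.016). Among other CUT-domain genes *Satb1* rose (0.47, edgeR adjusted p = 0.0010). A further list held genes known from the paraventricular and supraoptic nuclei but not particular to them. Of 16 tested, 5 rose and the others were not called (median 0.06). They were led by *Cartpt* (1.22), which encodes a neuropeptide, *Calcr* (0.97), the calcitonin receptor, and *Nkx2-2* (0.64), a homeodomain factor. *Calcr* was among the genes most raised in cluster 5, with *Npy*, and *Cartpt* among those of cluster 8, with *Ppp1r17*. The rises thus do not show a change in neurons of these nuclei. Among 16 genes of the secretory granule 5 fell and the others were not called (median -0.08), led by *Cadps2* (-0.82), *Pcsk1* (-0.61), a prohormone convertase, and *Scg2* (-0.57).

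Markers of other cell types moved with genotype in these neuron sums. The summed level of the astrocyte list was 133 to 161 CPM in control and 170 to 295 CPM in *Eed-cKO* embryos, that of the pituitary list 69.0 to 101 and 132 to 179 CPM, and that of the endothelial list 12.6 to 19.5 and 16.04 to 43.7 CPM. Their part in the differences between genotypes was not tested. The neuron marker list was at 11904.7 CPM in control and 10722.8 CPM in *Eed-cKO* neurons pooled.

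Outside neurons, *Onecut2* was called higher in *Eed-cKO* in astrocyte-like and in cycling progenitor-like cells, and each call was lost under several alternatives. Over all neural cells *Onecut2* had a log2 fold change of 0.81 (SE 0.09, edgeR adjusted p = 1.9e-06) and *Arnt2* one of -0.37 (SE 0.07, edgeR adjusted p = 0.00023), and for both genes the 9 mutant and 6 control embryos did not overlap. Of the 12545 genes tested in this comparison, 506 had every mutant above every control embryo and 334 every mutant below. Of the same genes 27.7% were called. In astrocyte-like cells *Onecut2* was at 3.0, 16.7 and 84.5 CPM (lowest, median and highest embryo) in control and at 13.4, 84.9 and 151.1 CPM in *Eed-cKO* (log2 fold change 1.49, SE 0.41, edgeR adjusted p = 0.015), against 7.16% of 12563 genes called. The ranges overlapped, and the call was lost with DESeq2, without doublets (0.80, adjusted p = 0.48), with cells thinned to 2000 UMIs, and without control embryo 1 or 3 or *Eed-cKO* embryo 2 or 5. In cycling progenitor-like cells *Onecut2* was at 0, 18.7 and 23.3 CPM in 6 control embryos and at 32.3, 91.2 and 133.7 CPM in 6 *Eed-cKO* embryos, from 11 and 74 UMIs. These ranges did not overlap (log2 fold change 2.14, SE 0.47, edgeR adjusted p = 0.0024, with 4.02% of 11509 genes called). Every mutant embryo lay above every control for 128 of the 11509 genes and below for 50. With thinned cells the value was 1.84 (edgeR adjusted p = 0.23), and with libraries as samples it was 1.42 (edgeR adjusted p = 0.57, and 0.78 by limma-voom with TREAT). In tanycyte-like cells *Onecut2* was at a median of 33.0 CPM in 3 control embryos (0 to 59.4) and of 24.3 CPM in 7 *Eed-cKO* embryos (0 to 50.02), from 4 and 21 UMIs, with no test. *Pou3f2* fell in astrocyte-like cells, from 97.1, 132.5 and 215.2 CPM in control to 42.3, 76.1 and 122.6 CPM in *Eed-cKO* (log2 fold change -0.87, SE 0.22, edgeR adjusted p = 0.0054). It was not called in thinned cells (-0.64, edgeR adjusted p = 0.29) or by limma-voom with TREAT (adjusted p = 0.17). In non-neural cells, which *Sox1-Cre* does not target, *Onecut2* was at a mean of 10.5 ± 10.7 CPM (SD, n = 6) in control and 22.4 ± 12.8 CPM (n = 8) in *Eed-cKO*, a comparison that was not tested.

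**Figure D2:**
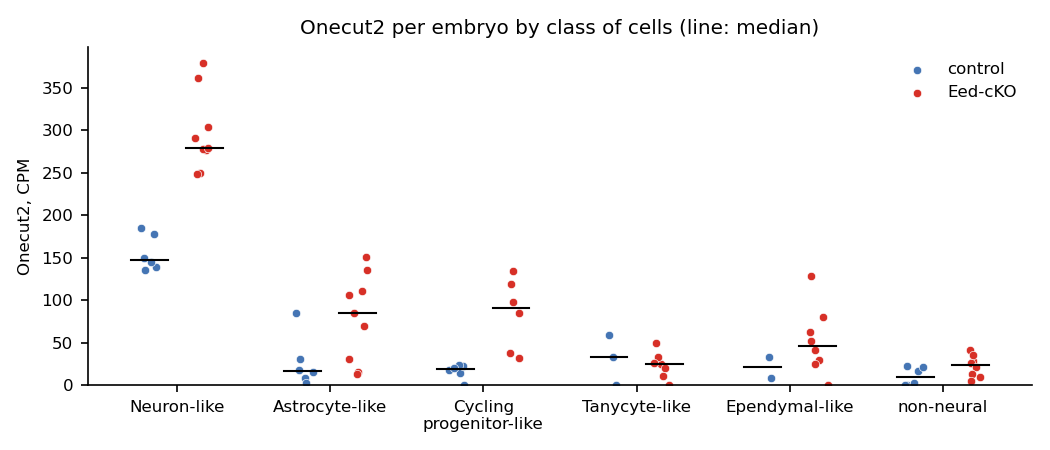
Level of *Onecut2* by cell class and embryo, in CPM on a linear axis, with control and *Eed-cKO* embryos as points and a line at the median of each group. The neuron-like and cycling progenitor-like points of the 2 genotypes do not overlap, and the astrocyte-like, tanycyte-like, ependymal-like and non-neural points do.

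Within neurons the change in *Onecut2* was spread over the clusters that held both genotypes. Clusters 0 and 21 are not covered here, as they held 1505 and 230 *Eed-cKO* cells but 15 and 1 control cells. In the 12 neuron-like clusters with at least 20 cells of each genotype, pooled *Onecut2* CPM was higher in *Eed-cKO* in 12 of 12, with a median over clusters of 61.6 in control and 160 in *Eed-cKO*. It went from 604 to 782 in the cluster where it was highest and from 169 to 454 and 151 to 451 in clusters 1 and 6, but only from 49 to 53 in cluster 12. *Arnt2* was lower in *Eed-cKO* in 12 of 12 clusters (medians 298 and 264). *Sim1* was higher in 6 and lower in 6, and *Pou3f2* was higher in 7 and lower in 5. *Sim1* was highest in the same cluster as *Onecut2*, cluster 2, at 188 CPM in control and 203 in *Eed-cKO*. The genes most raised in cluster 2 included *Foxb1*, *Cck* and *Lhx1* but none of the 4 peptide genes. *Avp* stood, with *Sim1*, among those of cluster 3. *Pou3f2* was highest in cluster 11 (134 and 157), followed by cluster 3 (116 and 111). These cluster values are pooled over embryos and are given as a description.

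**Figure D3:**
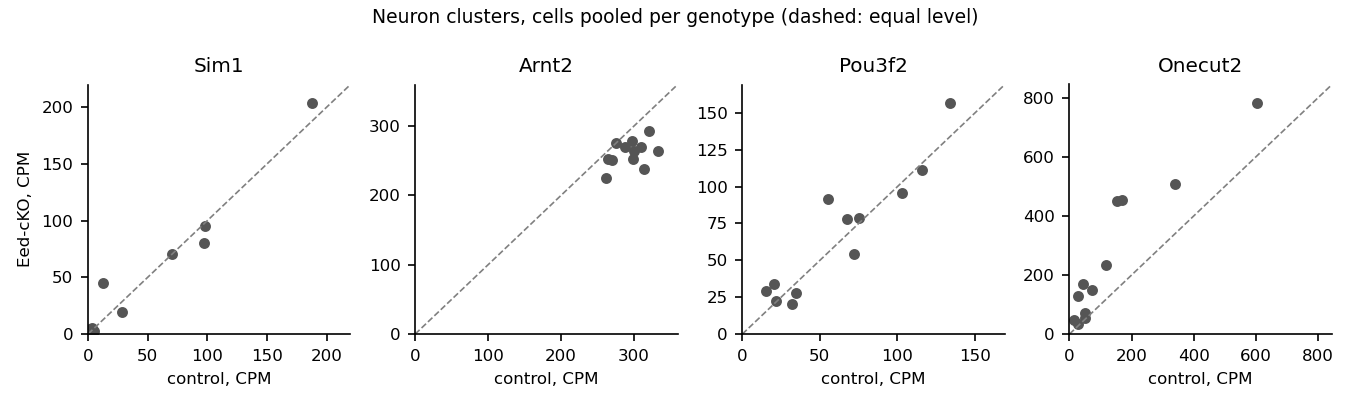
Pooled level of *Sim1*, *Arnt2*, *Pou3f2* and *Onecut2* in the 12 neuron-like clusters with at least 20 cells of each genotype. Control is on the x axis and *Eed-cKO* on the y axis, in CPM on linear axes with a dashed line of equal values. All 12 *Onecut2* points lie above the line and all 12 *Arnt2* points below it, while those of *Sim1* and *Pou3f2* fall on both sides.

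For *Onecut2* and *Arnt2* the share of neurons with a UMI moved in the direction of the level once depth was made equal. *Pou3f2*, which was not called, had a higher share in *Eed-cKO*. Its level there was lower in the full sums and, at a log2 fold change of 0.030, higher in the thinned ones. Each neuron was thinned to 2000 UMIs, and 281 shallower neurons of control and 358 of *Eed-cKO* were left out. *Onecut2* then had a UMI in 14.5% of the neurons of control embryos and in 31.9% of those of *Eed-cKO* (means over embryos), and before thinning in 23.8% and 48.0%. *Arnt2* was found in 42.7% and 38.1% of thinned neurons, *Sim1* in 6.88% and 7.84%, and *Pou3f2* in 9.75% and 10.5%. The corresponding shares in non-neural cells, which should lack these genes or hold little, were 2.76% and 3.29% for *Onecut2*, 11.4% and 9.16% for *Arnt2*, 2.296% and 0.50% for *Sim1*, and 2.69% and 1.81% for *Pou3f2*, in cells with median depths of 3946 and 3702.5 UMIs before thinning. The neuron shares of these 4 genes were above them in both genotypes.

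Peptide-positive neurons were defined by at least 1 UMI of *Avp*, *Oxt*, *Crh* or *Trh*, which gave 560 of 5269 control and 385 of 4909 *Eed-cKO* neurons. In control the *Avp* class was not separated from background, and the pooled class was little above it. *Avp* was found in 5.41% of control neurons but also in 6.63% of control non-neural cells, so the share with an *Avp* UMI was at background, whereas *Trh* was found in 3.42% and 0.288%, *Crh* in 1.63% and 0.576% and *Oxt* in 1.2% and 0.576%. In *Eed-cKO*, *Avp* was found in 2.66% of neurons (0 to 8.49% by embryo) and 1.25% of non-neural cells, *Trh* in 4.08% and 1.67%, *Crh* in 0.58% and 0, and *Oxt* in 1.04% and 0.625%. A UMI of any of the 4 was found in 10.7% of control neurons and 8.07% of control non-neural cells. The same shares were 7.72% and 3.33% in *Eed-cKO*. How many positive neurons held background UMIs only was not tested. Of the 287 *Avp*-positive control neurons 210 held exactly 1 *Avp* UMI. Positive neurons were deeper than other neurons, with medians of 6928.5 and 5380 UMIs in control and 5968 and 4780.5 UMIs in *Eed-cKO*. The peptide genes themselves differed between the genotypes over all neurons: *Avp* (log2 fold change -1.70, edgeR adjusted p = 0.016), *Oxt* (-3.05, edgeR adjusted p = 0.00060) and *Crh* (-2.15, edgeR adjusted p = 0.0046) fell, and *Trh* was at 0.11 (edgeR adjusted p = 0.75). The mix of peptides in the positive class therefore differed between genotypes, with *Trh*-positive cells making up 179 of 560 in control and 210 of 385 in *Eed-cKO*.

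*Sim1* and *Pou3f2* were higher in peptide-positive than in other neurons of the same embryo, in both genotypes. Because both sums come from one animal, the embryo was a block in the fit. The libraries of an embryo were summed, so the block does not take out differences between pieces of a hypothalamus. Their part in the contrast was not tested. The log2 ratio of the 2 classes, at CPM + 1, was also taken in each embryo and tested by an exact sign-flip permutation test (two-sided), which can reach 0.031 with 6 control embryos and 0.0078 with 8 *Eed-cKO* embryos. Embryo 9 of *Eed-cKO* had under 10 positive cells and was left out. Genes without overlap were counted over all genes for the genotype comparisons only. For this contrast and the contrasts of classes below, that share is not known, so non-overlap there is a description. *Sim1* was at 74.0, 97.5 and 142.7 CPM in positive and at 25.2, 41.8 and 51.5 CPM in other control neurons, so that the ranges did not overlap. Its log2 fold change was 1.34 (SE 0.11, edgeR adjusted p = 4.3e-13), and the ratio was above 0 in 6 of 6 embryos (mean 1.34 ± 0.31 SD, exact p = 0.031). In *Eed-cKO* it was at 42.9, 105.2 and 154.5 CPM in positive and at 23.1, 44.3 and 70.0 CPM in other neurons (log2 fold change 1.11, SE 0.15, edgeR adjusted p = 1.3e-08). There the ratio was above 0 in 7 of 8 embryos, with a mean of 1.05 ± 0.80 (exact permutation p = 0.016), a wider spread than in control.

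*Pou3f2* was at 71.0, 136.0 and 160.4 CPM in positive and at 49.9, 62.4 and 73.4 CPM in other control neurons, where only the lowest positive value reached into the other range. The log2 fold change was 1.07 (SE 0.10, edgeR adjusted p = 1.2e-10), with 6 of 6 embryos higher (mean ratio 1.03 ± 0.42, exact permutation p = 0.031). In *Eed-cKO* it was at 52.8, 100.6 and 160.7 CPM against 44.6, 64.3 and 79.5 CPM (log2 fold change 0.62, SE 0.13, edgeR adjusted p = 0.0011; 8 of 8 embryos higher, exact permutation p = 0.0078). That call was lost with thinned cells (0.38, adjusted p = 0.69), without the embryo block (adjusted p = 0.055) and without *Eed-cKO* embryo 4 (0.50, adjusted p = 0.0503), all by edgeR.

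*Onecut2* was higher in positive neurons by the edgeR fit, but not by the exact permutation test of the embryo ratios. It was at 136.0, 242.4 and 289.0 CPM in positive and at 110.6, 141.5 and 177.0 CPM in other control neurons (log2 fold change 0.63, SE 0.10, edgeR adjusted p = 4.7e-05). The ratio was above 0 in 5 of 6 embryos, with a mean of 0.57 ± 0.57 and an exact permutation p of 0.0625. In *Eed-cKO* it was at 112.3, 414.9 and 628.9 CPM against 240.3, 274.3 and 344.0 CPM (0.50, SE 0.09, edgeR adjusted p = 0.00014), higher in 7 of 8 embryos (exact permutation p = 0.156). Neither genotype's *Onecut2* call held with DESeq2 (adjusted p = 0.28 and 0.67) or without the embryo block (edgeR adjusted p = 0.080 and 0.20), and that of control was lost with thinned cells (0.39, edgeR adjusted p = 0.35). *Arnt2* was at 285.6, 337.4 and 366.2 CPM in positive and at 271.4, 292.8 and 324.8 CPM in other control neurons (log2 fold change 0.16, edgeR adjusted p = 0.13; 5 of 6 embryos higher, exact permutation p = 0.0625), and was higher in 4 of 8 *Eed-cKO* embryos. In all, 3 of the 6 members were called in each genotype, against 2.26% of 13225 genes in control and 1.42% of 13945 in *Eed-cKO*.

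**Figure D4:**
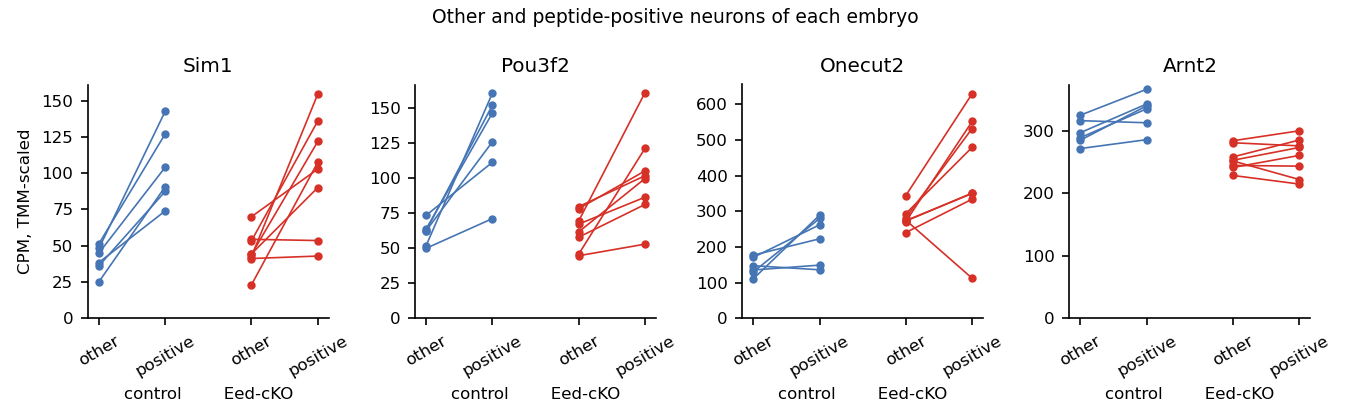
Level of *Sim1*, *Arnt2*, *Pou3f2* and *Onecut2* in other and in peptide-positive neurons of each embryo, in TMM-scaled CPM, with a line joining the 2 values of an embryo, for 6 control and 8 *Eed-cKO* embryos. *Sim1* rises along 6 of 6 control and 7 of 8 *Eed-cKO* lines and *Pou3f2* along 6 of 6 and 8 of 8, while *Arnt2* rises along 5 of 6 and 4 of 8.

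The same fold was compared between the genotypes by the interaction of class and genotype. No member was called by edgeR or by DESeq2, and *Pou3f2* was the 1 member with an unadjusted edgeR p under 0.05 (0.010). The difference (*Eed-cKO* minus control) was -0.22 for *Sim1*, -0.44 for *Pou3f2* (edgeR adjusted p = 0.96) and -0.10 for *Onecut2*, in a fit in which 0.0074% of 13522 genes, or 1 gene, passed and 650 had an unadjusted p under 0.05. Permuting the genotype of the embryos' ratios over all 3003 splits gave exact p values of 0.419, 0.123 and 0.737. For *Arnt2* the mean log2 ratio was 0.15 in control and 0.018 in *Eed-cKO*, and this test gave 0.044, not adjusted for the 6 members tested, while edgeR gave a difference of -0.11 (unadjusted p = 0.24). Between the genotypes within the positive class, *Onecut2* was at 138.6, 248.2 and 295.0 CPM in control and at 111.8, 416.5 and 629.8 CPM in *Eed-cKO*, where 7 of 8 embryos lay above all controls (log2 fold change 0.84, SE 0.20, edgeR adjusted p = 0.011). This was the member called, against 3.21% of 13057 genes, and it was lost with DESeq2 (adjusted p = 0.12). It also turned to -0.070 (edgeR adjusted p = 1.00) where positive cells had to hold at least 5 UMIs of a peptide. *Arnt2* had a log2 fold change of -0.37 there (edgeR adjusted p = 0.0625), *Pou3f2* one of -0.37 (edgeR adjusted p = 0.32) and *Sim1* one of -0.03 (edgeR adjusted p = 0.96). In the other neurons *Onecut2* rose by 0.94 (SE 0.10, edgeR adjusted p = 1.3e-07) with no overlap of the embryos, and *Arnt2* fell by 0.26 (edgeR adjusted p = 0.0055), among 17.8% of 11984 genes called. Every mutant embryo lay above every control for 243 of these 11984 genes and below for 195. The *Arnt2* call was lost with thinned cells (-0.21, edgeR adjusted p = 0.080) and with limma-voom and TREAT (adjusted p = 0.31). *Sim1* was at 0.16 (edgeR adjusted p = 0.54) in the other neurons. Without the 2 clusters of nearly only *Eed-cKO* cells it was at 0.50 (edgeR adjusted p = 0.035).

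The peptide-positive neurons also differed from the others in genes of peptide secretion. In control 7 of 16 secretory granule genes rose and the others were not called (median log2 fold change 0.20, against -0.01 over all genes tested), among them *Pcsk1* (1.80, edgeR adjusted p = 3.0e-07), *Ptprn* (0.82, edgeR adjusted p = 2.9e-12) and *Resp18* (0.78, edgeR adjusted p = 1.9e-15), the last 2 being granule membrane or lumen proteins. In *Eed-cKO* 3 of these genes rose, *Vgf* (0.71), *Resp18* (0.69) and *Ptprn* (0.60). Of 17 genes of the paraventricular and supraoptic list 4 rose and 3 fell in control. *Gal* (1.53) and *Pdyn* (1.04), both neuropeptides, were among the former, and *Sst* (-1.20), somatostatin, among the latter. Of 10 other bHLH-PAS, 7 other POU and 4 other CUT-domain genes tested in control, *Satb1* alone was called (-0.62, edgeR adjusted p = 0.00046).

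*Pou3f2* and *Onecut2* were detected more often in neurons with *Sim1* than in those without. Among control neurons thinned to 2000 UMIs, *Pou3f2* was detected in 21.5% of neurons with *Sim1* and in 8.86% of those without (means over embryos), higher in 6 of 6 embryos, and *Onecut2* in 29.0% and 13.4%, again in 6 of 6. *Arnt2* did not show this, at 43.0% and 42.6% (higher in 3 of 6). In *Eed-cKO* *Pou3f2* was detected in 17.8% of neurons with *Sim1* and 10.3% of those without (7 of 8 embryos), *Onecut2* in 42.5% and 30.8% (8 of 8) and *Arnt2* in 42.6% and 37.5% (6 of 8). In control, *Onecut3* was detected in 3.85% of neurons with *Onecut2* and 0.30% of those without (6 of 6 embryos), and *Onecut1* in 1.89% and 0.26% (5 of 6). In *Eed-cKO*, *Onecut1* was detected in 1.31% and 0.43% (8 of 9 embryos), but *Onecut3* in 0.49% and 0.55% (higher in 5 of 9), from 9 neurons with both.

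The 4 peptides taken one by one set the members apart. Each class of positive neurons was compared with neurons negative for all 4 peptides in the same embryo, in embryos with at least 10 positive cells. Libraries were again summed per embryo. Whether positive neurons came more often from some pieces of the hypothalamus was not tested, nor was the part of background *Avp* UMIs. *Sim1* was higher in all 4 classes of control neurons, *Pou3f2* in the *Avp*-positive and *Oxt*-positive ones, and *Onecut2* was higher in *Trh*-positive and lower in *Oxt*-positive and *Crh*-positive neurons. In *Trh*-positive control neurons (179 cells) *Onecut2* was at 232.2, 534.2 and 775.3 CPM, against 112.0, 143.4 and 179.7 CPM in peptide-negative neurons, with no overlap. The log2 fold change was 1.81 (SE 0.09, edgeR adjusted p = 1.3e-86), and the ratio was above 0 in 6 of 6 embryos with a mean of 1.71 ± 0.72 (exact permutation p = 0.031). The SD is the spread of single embryos and the SE is that of the fitted mean. The exact permutation test rests on the embryo ratios, and 0.031 is the lowest p it can give with 6 embryos. The adjusted p of the fit was far lower. Whether the SE of the fit holds the whole spread between embryos was not tested. *Sim1* was at 75.9, 106.5 and 226.8 CPM against 25.7, 42.3 and 52.2 CPM (1.54, SE 0.17, edgeR adjusted p = 3.7e-16; 6 of 6 embryos, exact permutation p = 0.031), again with no overlap. *Pou3f2* was at 47.6, 78.0 and 176.1 CPM there and was not called (edgeR adjusted p = 0.13). These 2 of the members were called among 1.51% of 12752 genes. *Onecut3* had 15 UMIs in *Trh*-positive control cells, at 5.87, 9.57 and 22.01 CPM against 1.66, 4.28 and 6.01 CPM, higher in 6 of 6 embryos but not called.

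In *Trh*-positive *Eed-cKO* neurons (8 embryos) *Onecut2* was at 198.3, 547.8 and 869.8 CPM against 244.3, 278.9 and 347.4 CPM in peptide-negative neurons, higher in 7 of 8 embryos (log2 fold change 1.05, SE 0.09, edgeR adjusted p = 1.2e-28, exact permutation p = 0.016). The medians of the *Trh*-positive class were thus 534.2 CPM in control and 547.8 CPM in *Eed-cKO*, beside 143.4 and 278.9 CPM in peptide-negative neurons. *Sim1* was at 58.2, 106.5 and 167.7 CPM against 23.6, 44.9 and 71.2 CPM, higher in 8 of 8 embryos (1.14, SE 0.17, edgeR adjusted p = 2.5e-08, exact permutation p = 0.0078), among 1.17% of 13806 genes called. This call was lost with thinned cells (edgeR adjusted p = 0.56) and with at least 2 *Trh* UMIs per cell (edgeR adjusted p = 0.098). The *Onecut2* contrast differed between the genotypes by -0.72 (*Eed-cKO* minus control, SE 0.15, edgeR adjusted p = 0.0071, with 0.0684% of 13161 genes called; exact permutation p of the embryo ratios 0.048), a call that was lost without control embryo 3 (-0.47, edgeR adjusted p = 0.38) and with DESeq2.

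In *Avp*-positive control neurons (287 cells, 6 embryos) *Sim1* was at 58.8, 84.4 and 139.0 CPM against 25.4, 41.8 and 51.7 CPM (log2 fold change 1.202, SE 0.15, edgeR adjusted p = 3.5e-10), and *Pou3f2* at 79.3, 164.2 and 231.9 CPM against 49.9, 62.5 and 73.9 CPM (1.33, SE 0.12, edgeR adjusted p = 9.3e-17). For both genes all 6 embryos were higher and the ranges did not overlap (exact permutation p = 0.031 each), among 2.37% of 12967 genes called. *Onecut2* was at 24.2, 122.2 and 247.2 CPM against 110.9, 141.5 and 177.7 CPM, higher in 3 of 6 embryos (-0.03, edgeR adjusted p = 0.97). With at least 2 *Avp* UMIs per cell the value for *Onecut2* became -2.25 (edgeR adjusted p = 7.6e-11, 4 embryos). In *Avp*-positive *Eed-cKO* neurons of embryos 2 to 6 (12 to 40 cells each) *Onecut2* was at 47.0, 198.5, 82.9, 146.4 and 64.5 CPM, against 287.7, 246.9, 300.6, 279.8 and 280.7 CPM in their peptide-negative neurons, so that it was lower in 5 of 5 (log2 fold change -1.21, SE 0.18, edgeR adjusted p = 6.7e-08). With 5 embryos the exact permutation test cannot go under 0.0625, the value it gave. *Pou3f2* was at 109.7, 132.3, 378.9, 121.0 and 76.3 CPM against 59.0, 80.2, 71.0, 81.7 and 45.5 CPM, higher in 5 of 5 (1.084, SE 0.21, edgeR adjusted p = 0.00016, exact permutation p = 0.0625), but was at 0.69 (edgeR adjusted p = 0.25) without embryo 4 and at -0.061 in thinned cells. *Sim1* was at 109.7, 173.1, 153.9, 84.5 and 35.2 CPM against 45.4, 45.3, 54.8, 71.9 and 42.1 CPM, higher in 4 of 5 (0.99, edgeR adjusted p = 0.0077, exact permutation p = 0.188), and lost its call with DESeq2, in thinned cells, without doublets, without the block and without embryo 3 or 4. In this class 1.16% of 13714 genes were called. The *Onecut2* difference between the genotypes was -1.07 and was not called (edgeR adjusted p = 0.059, with 0.0303% of 13215 genes called), and permuting the embryos' ratios gave an exact p of 0.128.

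*Oxt*-positive control neurons could be compared in embryos 1, 2 and 4, with 10, 10 and 19 cells. *Sim1* was at 188.6, 207.0 and 206.5 CPM against 26.4, 37.8 and 53.7 CPM in peptide-negative neurons (log2 fold change 2.32, SE 0.34, edgeR adjusted p = 1.9e-09), and *Pou3f2* at 275.7, 369.6 and 377.7 CPM against 76.8, 54.1 and 66.4 CPM (2.40, SE 0.25, edgeR adjusted p = 4.8e-19). By median these were the highest *Sim1* and *Pou3f2* levels of the 4 peptide classes of control neurons. *Onecut2* was at 87.1, 29.6 and 41.3 CPM against 136.1, 141.6 and 184.8 CPM (-1.70, SE 0.36, edgeR adjusted p = 0.00046), lower in all 3, and was not called by DESeq2 (adjusted p = 0.14). With 3 embryos the exact permutation test cannot go under 0.25. *Arnt2* was at 391.8, 428.7 and 354.1 CPM against 310.9, 339.4 and 297.4 CPM, higher in 3 of 3 but not called (edgeR adjusted p = 0.69), and 2.06% of 12435 genes were. No *Eed-cKO* embryo set allowed this fit. Pooled over 48 *Oxt*-positive *Eed-cKO* neurons, *Sim1* was at 148 CPM, *Pou3f2* at 203 CPM, *Onecut2* at 148 CPM and *Arnt2* at 288 CPM, with no replicate check.

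In *Crh*-positive control neurons (84 cells, 6 embryos) *Sim1* was at 48.3, 88.1 and 120.1 CPM against 26.01, 42.9 and 52.9 CPM (log2 fold change 1.09, SE 0.25, edgeR adjusted p = 0.0026), higher in 6 of 6 embryos (exact permutation p = 0.031), and was not called without control embryo 3 (edgeR adjusted p = 0.091). *Onecut2* was at 0, 20.4 and 118.2 CPM, from 26 UMIs, against 113.5, 145.3 and 182.1 CPM, lower in 6 of 6 (-2.21, SE 0.26, edgeR adjusted p = 2.6e-14, exact permutation p = 0.031). *Pou3f2* ran from 0 to 205.2 CPM over the 6 embryos, with a median of 67.7 CPM, and was not called (edgeR adjusted p = 0.13). The 2 calls stood among 1.38% of 12509 genes. In 30 *Crh*-positive *Eed-cKO* neurons pooled, *Sim1* was at 83.5 CPM and *Onecut2* at 148 CPM.

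**Figure D5:**
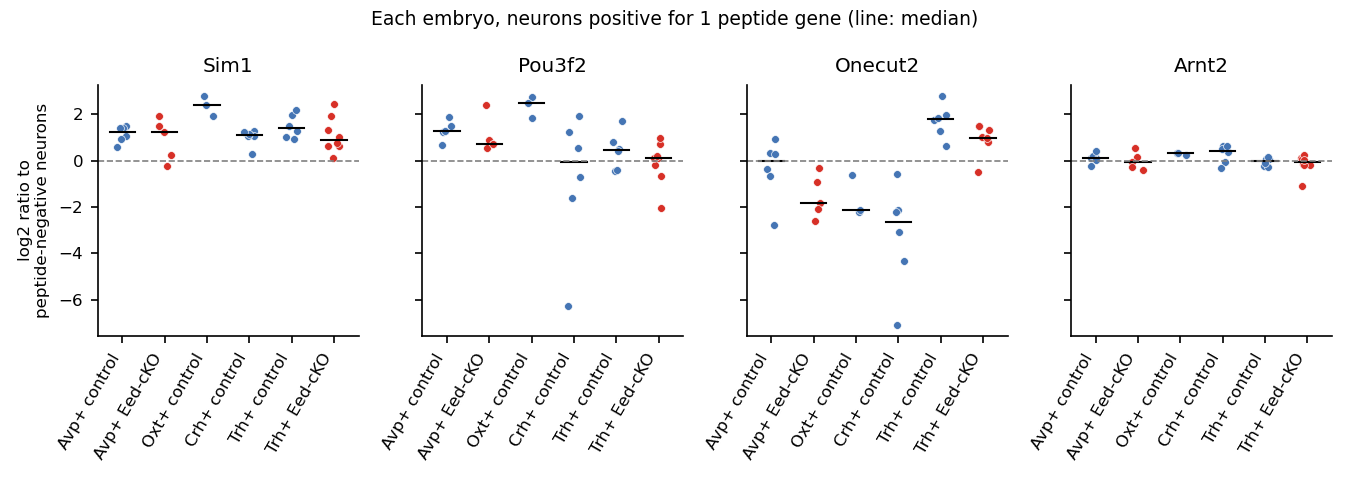
Log2 ratio of the level of *Sim1*, *Pou3f2*, *Onecut2* and *Arnt2* in *Avp*-, *Oxt*-, *Crh*- or *Trh*-positive neurons to that in peptide-negative neurons of the same embryo, at CPM + 1, with control and *Eed-cKO* embryos as points, a line at the median and a dashed line at 0. *Onecut2* lies above 0 in 6 of 6 *Trh*-positive and below 0 in 6 of 6 *Crh*-positive control points, and *Sim1* lies above 0 in every control embryo of all 4 classes.

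By transmitter, *Sim1* was far higher in glutamatergic neurons, defined by a UMI of the vesicular glutamate transporter gene *Slc17a6* and none of the vesicular GABA transporter gene *Slc32a1*, than in GABAergic neurons, defined by the reverse. It was at 54.1, 71.7 and 105.2 CPM in glutamatergic and at 0.65, 1.76 and 15.9 CPM in GABAergic control neurons, from 1410 and 29 UMIs, without overlap (log2 fold change 4.42, SE 0.26, edgeR adjusted p = 7.4e-15; 6 of 6 embryos, exact permutation p = 0.031). In *Eed-cKO* it was at 31.1, 78.6 and 122.6 CPM against 0, 8.35 and 22.5 CPM, from 1050 and 37 UMIs, again without overlap (2.804, SE 0.20, edgeR adjusted p = 8.3e-41; 9 of 9 embryos, exact permutation p = 0.0039). *Pou3f2* was called in control (0.61, SE 0.13, edgeR adjusted p = 0.0010), but it was higher in 5 of 6 embryos (exact permutation p = 0.094) and was lost without the embryo block (edgeR adjusted p = 0.059). *Onecut2* was called in control (0.35, edgeR adjusted p = 0.011) with 4 of 6 embryos higher and in *Eed-cKO* (0.39, edgeR adjusted p = 7.6e-06) with 7 of 9 higher, and the exact permutation test gave 0.219 and 0.16. Both *Onecut2* calls were lost with DESeq2 and without the embryo block, and the control one without embryo 3, 4 or 6. These were among 7.62% of 13678 genes called in control and 6.69% of 14261 in *Eed-cKO*. The *Sim1* contrast was smaller in *Eed-cKO* by edgeR (-1.60, adjusted p = 0.0047, with 1.67% of 15304 genes called) but not by permutation of the embryo ratios (exact p = 0.475), nor by DESeq2.

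In control neurons with at least 1 UMI of *Th*, tyrosine hydroxylase, the enzyme of catecholamine synthesis, *Sim1* was at 2.88, 24.2 and 59.5 CPM, against 35.1, 50.6 and 62.8 CPM in *Th*-negative neurons, lower in 6 of 6 embryos (log2 fold change -0.93, SE 0.23, edgeR adjusted p = 0.0038, exact permutation p = 0.031). *Pou3f2* was at 66.2, 83.6 and 185.1 CPM against 49.95, 71.8 and 79.2 CPM, higher in 4 of 6 (0.59, SE 0.15, edgeR adjusted p = 0.0051, exact permutation p = 0.219). These were 2 calls among 2.88% of 12828 genes. Both were lost with DESeq2, in thinned cells and without the block, and *Sim1* without control embryo 6, *Pou3f2* without embryo 2 or 4. In *Eed-cKO*, where 1.74% of 13529 genes were called, the adjusted p of the members ran from 0.50 to 0.99 by edgeR, the lowest unadjusted p was 0.061, and DESeq2 called 0 members.

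Over the 21 clusters large enough to give a level, the genes whose pattern of log CPM was most like that of each member, among 12329 genes, were ranked by Pearson's r. These points share libraries and depth, and r is a description without a test. For *Sim1* they were *Trh* (0.614), *Emx2* (0.597) and *Nxph4* (0.588). For *Pou3f2* they were *Npas3* (0.735), *Sall3* (0.721) and *Pantr1* (0.678), the last a non-coding gene next to *Pou3f3*. *Arnt2* was followed most closely by the widely expressed neuronal genes *Nalcn* (0.958), *Cask* (0.955) and *Myo9a* (0.949), and *Onecut2* by *2700069I18Rik* (0.855), *Lin7a* (0.846) and *D930028M14Rik* (0.842).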

How the data were processed

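Hypothalami of 6 control and 9 *Eed-cKO* embryos at E18.5 were cut into pieces, dissociated and sequenced by the authors as 48 ddSEQ 3′ libraries. The deposited table held raw UMI counts per gene and cell, made by the authors with STAR 2.5.2b and SAMtools 1.3 on mm10, per the labels, and already filtered on cells. Counts of single libraries were read by the library name in each cell's identifier, and 0 columns belonged to no sample.

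Clusters of cells were made in scanpy 1.11.5 by the Leiden method (leidenalg 0.10.2; counts scaled to 10000 per cell, 2000 variable genes without the 6 members, 30 principal components, 15 neighbours, resolution 1, seed 0), and a cluster was named from markers where at least 3 markers of a type passed a fold of 2 and 10% of cells. Doublets were kept in the main analysis, and the top 6% of cells by simulated doublet score were removed in an alternative. UMI counts were summed per embryo and class and tested with the quasi-likelihood test of edgeR 4.0.16 (R 4.3.3) after TMM scaling, with Benjamini-Hochberg adjustment over all genes tested and a threshold of 0.05. Genes used to define a class were taken out of its counts. In the fits of genotype in all neural cells, neuron-like cells and other neurons, genes needed 15 UMIs in all, at least 2 in 1 sum and a median log2 CPM of at least 1.5. In the fits of genotype in peptide-positive neurons, astrocyte-like and cycling progenitor-like cells, and in all fits within embryos, the limits were 9, 2 and 0.45. Fits of 2 classes within embryos included the embryo as a block because its sums share 1 animal, and sums of under 10 cells were left out. Embryo ratios at a pseudocount of 1 were tested by exact permutation, two-sided. Counts were also simulated with 200 changed genes, all drawn from genes with more UMIs than the median gene tested. The fit of genotype in neuron-like cells recovered 100% of genes changed by a fold of 2, and that in peptide-positive neurons 93%, or 32% at a fold of 1.5. These rates do not cover scarce genes.

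The genes named were the 6 members, the 4 peptide genes, *Eed*, the 3 genes most like each member and up to 3 called genes per list and direction, but some called genes of the POU and CUT lists are not reported here. The members, lists and comparisons were chosen with earlier results of these data known. Alternatives were DESeq2 1.42.0, limma-voom 3.58.1 with TREAT on libraries, library size alone, libraries as samples, sex as a covariate, no filter on the median, cells thinned to 2000 UMIs, removal of doublets, clustering with the members kept, stricter positivity, no embryo block, and leaving out each embryo. Nothing in the labels ties replicate numbers across genotypes, so no pairing across genotypes was made.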

Additional observations from a re-analysis of the deposited data

Results flagged for a closer look

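Both results given here are differences between the genotypes in a contrast of cell classes, found by the interaction of class and genotype with the embryo as a block. The contrast of *Trh*-positive with peptide-negative neurons was smaller in *Eed-cKO* than in control for *Onecut2*, by -0.716274 on the log2 scale (SE 0.15, edgeR adjusted p = 0.0071), where 0.0684% of 13161 genes were called. The embryo ratios averaged 1.71 over 6 control and 0.94 over 8 *Eed-cKO* embryos, and permuting them over all 3003 splits gave an exact p of 0.048. The call was lost with DESeq2 (adjusted p = 1.00), with thinned cells, without doublets (edgeR adjusted p = 0.060), without the block and without control embryo 3, where the value was -0.47 (edgeR adjusted p = 0.38).

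For *Sim1*, the contrast of glutamatergic with GABAergic neurons was smaller in *Eed-cKO* by -1.60421 on the log2 scale (SE 0.39, edgeR adjusted p = 0.0047), where 1.67% of 15304 genes were called. The embryo ratios averaged 4.36 in control and 3.73 in *Eed-cKO*, and the exact permutation over 5005 splits gave 0.475. GABAergic neurons held 29 *Sim1* UMIs in control and 37 in *Eed-cKO*, so the value rests on few molecules. The call was lost with DESeq2, with thinned cells, without the block, without control embryo 6 (edgeR adjusted p = 0.070) and without *Eed-cKO* embryo 9 (edgeR adjusted p = 0.084). In 24 groups of embryos searched for a value far from the others, 0 held one.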

How the results depend on the processing

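The *Onecut2* rise and *Arnt2* fall over all neural cells kept their direction and call in all 28 alternatives. For *Onecut2* in neuron-like and other neurons the same held in all 27.

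Numbers of members called changed as follows. In neuron-like cells limma-TREAT gave 1 instead of 2. In peptide-positive neurons of the 2 genotypes (1 called), DESeq2, limma-TREAT and at least 2 or 5 UMIs per positive cell gave 0, leaving out the largest control library or taking libraries as samples gave 2, and leaving out 1 embryo gave 1 to 2. In other neurons thinned cells and limma-TREAT gave 1 instead of 2. For positive against other *Eed-cKO* neurons, no replicate block gave 1 instead of 3. For *Avp*-positive *Eed-cKO* neurons (3), thinned cells gave 1 and leaving out 1 embryo 1 to 3, and for *Crh*-positive control neurons (2) leaving out 1 embryo gave 1 to 3. For *Trh*-positive *Eed-cKO* neurons thinned cells and at least 2 UMIs gave 1 instead of 2. For glutamatergic against GABAergic neurons no replicate block gave 1 in control (3 called), and DESeq2 and no replicate block gave 1 in *Eed-cKO* (2 called). For *Th*-positive control neurons (2), DESeq2, thinned cells and no replicate block gave 0, leaving out the largest library or at least 2 UMIs gave 1, and leaving out 1 embryo 1 to 2. In astrocyte-like cells (2), DESeq2, removal of doublets and limma-TREAT gave 1, thinned cells 0 and leaving out 1 embryo 1 to 2. In cycling progenitor-like cells (1), thinned cells, libraries as samples and limma-TREAT gave 0. The difference between genotypes in *Avp*-positive neurons (0) became 1 with no median filter and without doublets, and 0 to 1 when 1 embryo was left out. For *Trh*-positive neurons (1) it became 0 with DESeq2, without doublets, in thinned cells and with no replicate block, and for glutamatergic against GABAergic neurons (1) it became 0 with DESeq2, thinned cells and no replicate block, with 0 to 1 for both when 1 embryo was left out.

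The sign of 2 called values turned, those of *Pou3f2* in *Avp*-positive *Eed-cKO* neurons (thinned -0.061) and of *Onecut2* in peptide-positive neurons of the 2 genotypes (at least 5 UMIs -0.070). The others whose sign turned were not called. These were *Pou3f2* in neuron-like cells (thinned 0.030), *Sim1* in peptide-positive neurons of the 2 genotypes (library size alone 0.011, without the mutant clusters 0.28), *Arnt2* in positive against other *Eed-cKO* neurons (thinned -0.22), the *Onecut2* difference between genotypes in positive neurons (thinned 0.17, at least 2 UMIs 0.043) and *Onecut2* in *Avp*-positive control neurons (without doublets 0.044). With at least 5 UMIs, *Pou3f2* turned (0.044) in peptide-positive neurons of the 2 genotypes. Leaving out 1 embryo gave -0.048 to 0.13 for *Sim1* in neuron-like cells, -0.13 to 0.087 for *Sim1* in peptide-positive neurons, -0.21 to 0.095 for the *Onecut2* difference and -0.24 to 0.16 for *Onecut2* in *Avp*-positive control neurons. The cause of these changes was not tested.

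Over all genes, and over the alternatives other than leaving out 1 embryo, the number called ran from 2269 to 5877 (3478 in the main fit) in all neural cells, 1222 to 4282 (2207) in neuron-like cells, 11 to 695 (419) in peptide-positive neurons, 1205 to 4121 (2137) in other neurons, 49 to 968 (299) and 62 to 383 (198) in positive against other neurons of control and *Eed-cKO*, 0 to 15 (1) for their difference, 75 to 666 (307) and 51 to 163 (159) for *Avp*, 93 to 289 (256) for *Oxt*, 75 to 182 (173) for *Crh*, 63 to 200 (193) and 37 to 172 (161) for *Trh*, 416 to 1090 (1042) and 286 to 957 (954) for transmitter, 111 to 392 (370) and 65 to 245 (236) for *Th*, 537 to 1495 (900) in astrocyte-like and 3 to 499 (463) in cycling cells, and 0 to 8 (4), 0 to 19 (9) and 62 to 271 (255) for the differences in *Avp*, *Trh* and transmitter. Leaving out 1 embryo went beyond these ranges in *Eed-cKO* for *Avp* (51 to 278, the highest without embryo 3), transmitter (717 to 1007) and *Th* (162 to 263), in cycling cells (292 to 508), and for the differences in *Avp* (3 to 35, the highest without *Eed-cKO* embryo 3) and transmitter (195 to 276). With library size alone the genes higher and lower were 2296 and 1092 (main 1916 and 1562) in all neural cells, 1418 and 786 (1159 and 1048) in neuron-like cells and 1365 and 789 (1133 and 1004) in other neurons.

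No paired analysis across genotypes was possible because embryo numbers of the 2 genotypes mark different animals and litters. Fits of *Oxt*-positive and *Crh*-positive *Eed-cKO* neurons, of at least 5 UMIs for single peptides and for positive *Eed-cKO* neurons, of at least 2 UMIs for *Avp* in *Eed-cKO*, *Oxt* and *Crh*, and of thinned cells or removal of doublets for *Oxt* and *Crh* in control were not run, as too few embryos held 10 cells, nor was leaving out embryo 1, 2 or 4 for *Oxt*.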
